A study of Mus musculus with 16 samples.

Results

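Spinal cords of mutant profilin mice at the end of a motor neuron disease were compared with those of old mice that carry the normal human protein. The 10 libraries were those labelled MO1 to MO5 (mutant old) and WO1 to WO5 (wild-type old), 10 of the 16 in the series. Each was assigned to its group by genotype and age label and not by a measured value. The comparison itself was chosen with earlier results of these data known. Amyotrophic lateral sclerosis (ALS) is a fatal loss of motor neurons, and changes in profilin 1, a small protein that feeds actin monomers to growing filaments, cause rare inherited forms of it. All mice were transgenic on a C57BL/6N background. MO mice were of the line whose name ends in 838Kiaei/J, which expresses human PFN1 with the G118V change, and WO mice of that ending in 850Kiaei/J, which expresses unchanged human PFN1. In both lines a mouse prion promoter drives the human cDNA, each genotype is 1 line, and no mouse without a transgene was measured, so every comparison here is between a mutant and an unchanged human protein added to the mouse genes. All mice were labelled male. MO mice were taken when they could no longer right themselves, at 198, 190, 245, 224 and 175 days, and WO mice at 190 days (WO1 to WO3) or 294 days (WO4 and WO5). Libraries of poly(A) RNA of the cord were made in 2 batches, with numbers 1 to 3 of each group in batch 1 and numbers 4 and 5 in batch 2. The other 6 mice, 3 of each line at 50 days (MY and WY, mutant young and wild-type young), were all in batch 1 and serve below as the measure of the genotype difference before disease.

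A level below is the deposited value log2(FPKM + 1) after the authors' batch adjustment, where FPKM is fragments per kilobase of transcript, scaled to the size of the library, and a change is the MO mean minus the WO mean of these levels. Because 1 is added before the logarithm, a change understates the log2 ratio of FPKM in genes with low FPKM. Levels are per length, so they may be compared between genes. A gene is said to have risen or fallen when limma gave an FDR (Benjamini-Hochberg, over all 18167 genes) at or below 0.05 and the change was at least 1.5-fold, which is 0.585 on the log2 scale. Such a gene is also said to be called.

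The tissue label was checked first. All 15 *Hox* genes of the list, which are expressed along the trunk and are silent in forebrain, were above 0 in each of the 10 mice, from *Hoxd11* at a mean of 1.05 to *Hoxb8* at 5.71. Limma called 0 of these 15 genes between MO and WO, although 5 of them had an unadjusted p below 0.05 and 4 still had one of at most 0.05 after adjustment. Over all 18167 genes these numbers were 6986 and 5075, the background for such counts in every list below. Of these 4 *Hox* genes, the caudal genes *Hoxd10* and *Hoxd11* were higher in MO (0.41 and 0.47) and *Hoxb5* and *Hoxc8* lower (-0.22 and -0.43), and whether the groups differ in the level of cord taken was not tested. Markers of astrocytes (*Gfap*, *Aqp4*, *Slc1a2*), oligodendrocytes (*Mbp*, *Mog*), neurons (*Snap25*, *Syt1*, *Rbfox3*), microglia (*Cx3cr1*, *Csf1r*, *Tmem119*) and motor neurons (*Chat*, *Slc18a3*, *Mnx1*) were all present. The sex label did not hold for 1 mouse. *Xist*, the RNA of the inactive X chromosome in females, was at 3.21 in MO5 and at no more than 0.37 in the other 15 mice. The Y-linked genes *Ddx3y*, *Uty*, *Kdm5d* and *Eif2s3y* were at 1.95, 1.05, 1.07 and 1.82 in MO5, and their lowest levels in any other mouse were 4.06, 2.03, 2.16 and 3.66. The adjusted levels of MO5 therefore go against its male label. Its Y-linked levels were low but above 0 after the batch adjustment, which left *Xist* at -0.36, -0.35 and -0.34 in MO4, WO4 and WO5. Whether Y-linked RNA was present before that adjustment was not tested. The numbers of genes that rose and fell are given with and without MO5. So are those of each list whose number of called genes changed when MO5 was left out.

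Microglia, the resident macrophages of the spinal cord, and astrocytes both answer motor neuron degeneration with large shifts in RNA content. In mouse models of neurodegeneration microglia pass from a homeostatic state to one called disease-associated, in which the receptor pair TREM2 and TYROBP, lipid carriers and lysosomal proteases are made at high levels. Motor neurons are a small share of the cells of the cord, are cholinergic, and carry very large axons filled with neurofilaments. In bulk tissue, fewer cells of a type and less RNA per cell cannot be told apart, and the same holds for more cells and more RNA per cell.

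Between WO and MO, 742 genes rose (4.08% of 18167) and 94 fell (0.517%). Without MO5 the counts were 742 (4.08%) and 113 (0.622%), and 717 of the genes that rose and 89 of those that fell were called in both fits. The FDR alone was at or below 0.05 for 5075 genes (27.9%). Increases were larger as well as more frequent: 345 of the genes that rose changed at least 2-fold, 68 at least 4-fold and 15 at least 8-fold, against 7, 4 and 1 of those that fell, where all but *Chodl* are micro or small nucleolar RNAs. The median change was 0.96 among genes that rose, -0.69 among those that fell and 0.00035 over all genes. In each of the 742 and 94 genes the mice of batch 1 alone and those of batch 2 alone changed in the same direction. These genes were chosen by their change over the same mice, which favours a shared direction. The median change of the genes that rose was 0.96 in batch 1 and 0.98 in batch 2, and that of the genes that fell was -0.76 and -0.61. The test for a different change in the 2 batches, in which the WO mice also differ in age, called 0 genes with limma (0%), and 1297 had an unadjusted p below 0.05. Every MO mouse lay above every WO mouse in 2051 genes (11.3%) and below in 1571 (8.65%), and among the called genes in 709 and 69.

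**Figure D1:**
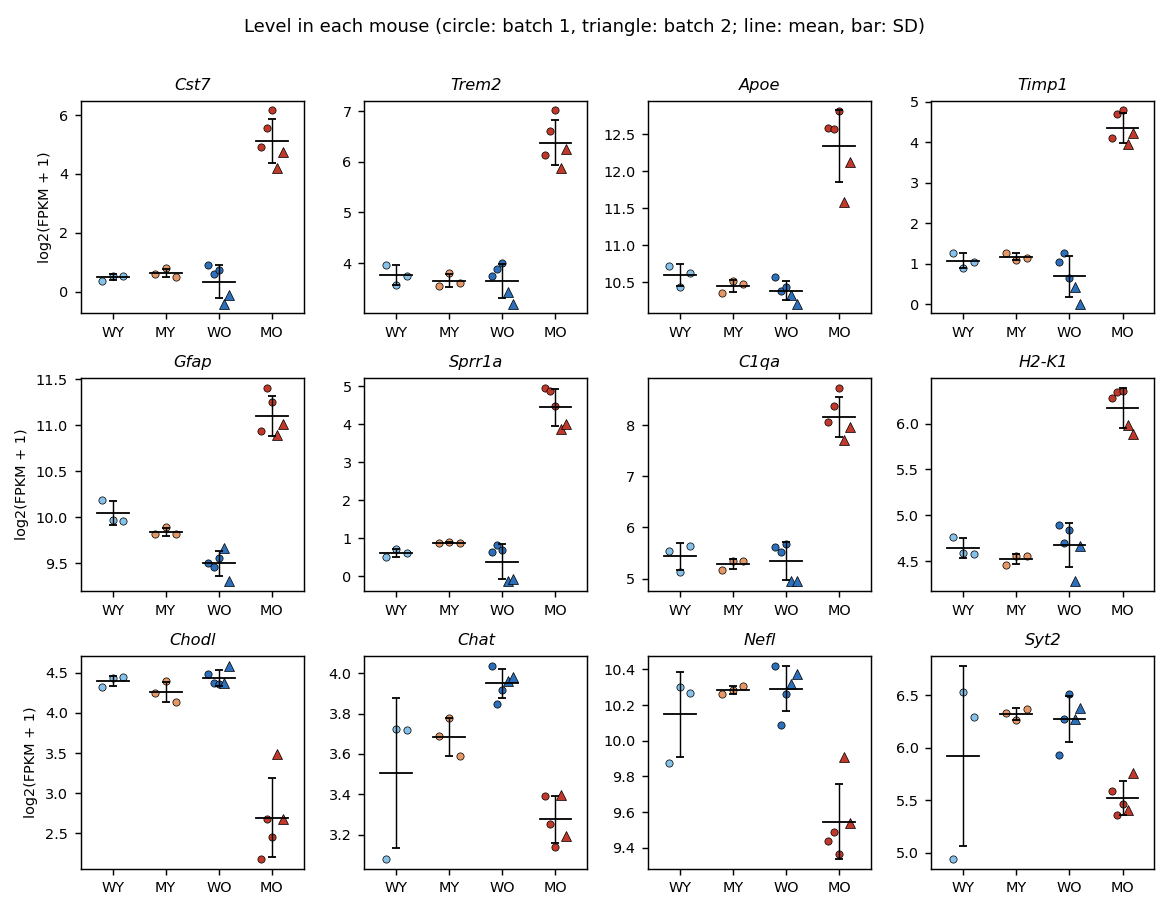
Levels of 12 genes, log2(FPKM + 1), in each of the 16 mice, by group (WY and MY at 50 days, WO and MO old), with circles for batch 1, triangles for batch 2, lines for group means and bars for SD. In the 8 upper panels the 5 MO mice lie above all other mice; in the 4 lower panels they lie below every WO mouse.

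The gene lists used next hold 1024 symbols in 63 lists, of which 1005 symbols were in the table, and they contain 240 of the genes that rose and 23 of those that fell. The 10 largest increases without overlap, leaving out small RNAs and unnamed transcripts, were those of *Cst7*, *Lyz2*, *Gpnmb*, *Clec7a*, *Sprr1a*, *Timp1*, *Cd52*, *S100a4*, *Serpina3n* and *Lgals3*. The 10 largest decreases by the same rule were those of *Chodl*, *Slc9b2*, *Kcnk9*, *Apln*, *Grin3b*, *Nid1*, *Kcnj14*, *Unc5b*, *Piga* and *Nkx2-9*.

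**Figure D2:**
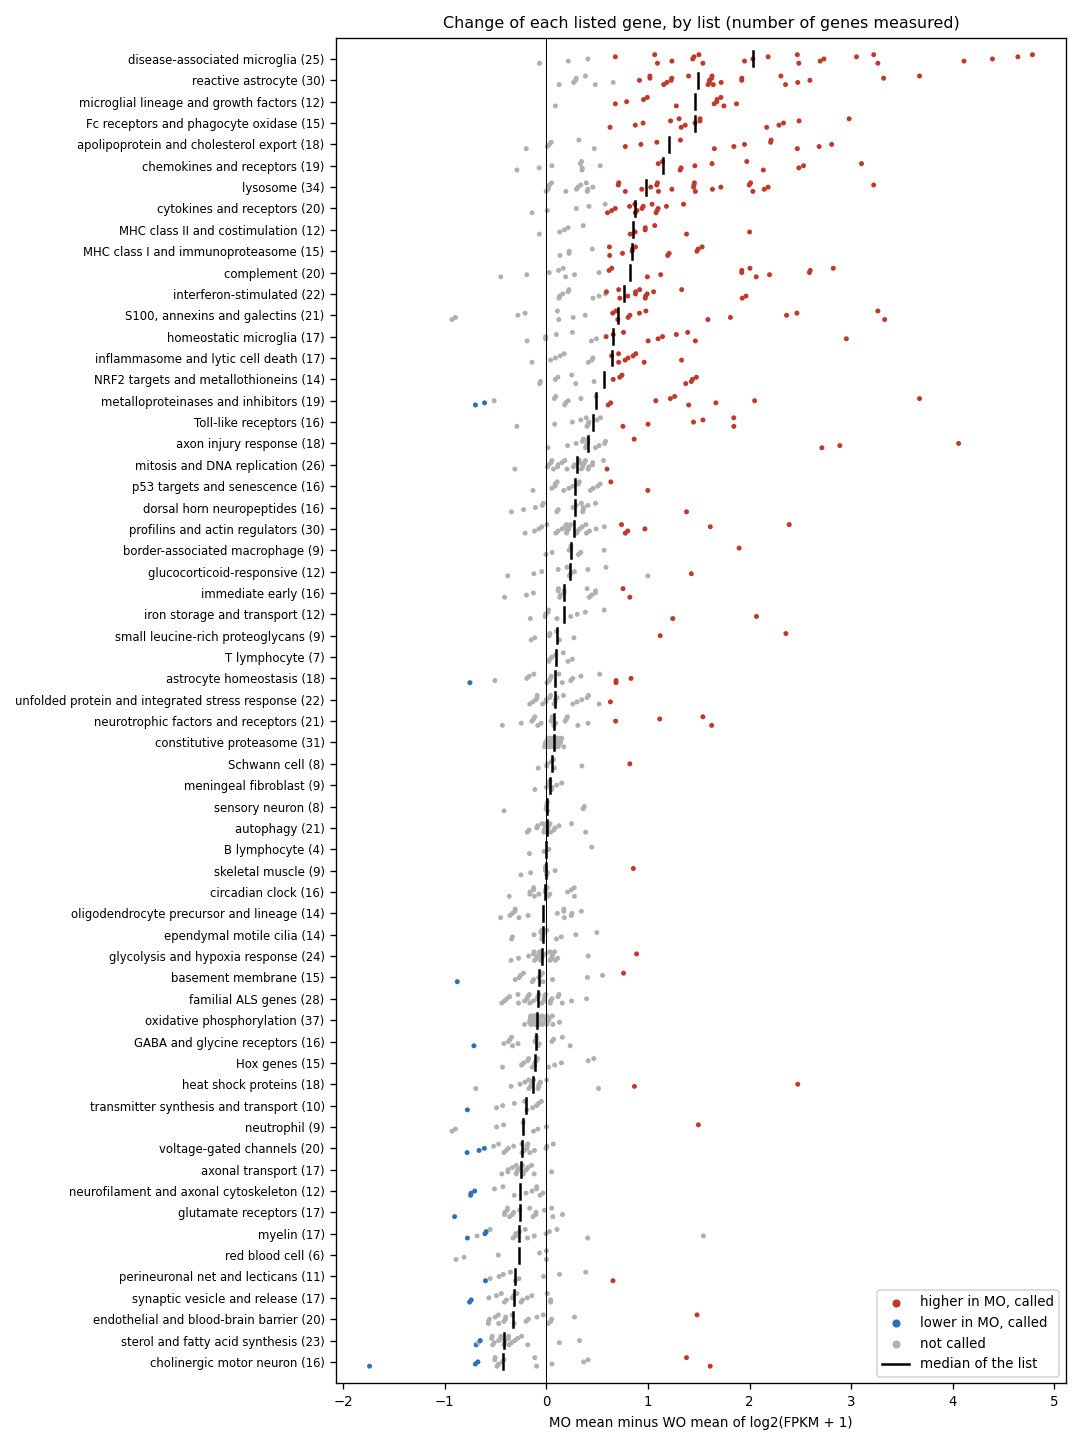
Change of each listed gene, MO mean minus WO mean of log2(FPKM + 1), for 62 lists ordered by their median change (black bars), with the number of genes measured in brackets. Red points rose, blue points fell and grey points were not called; disease-associated microglia lie at the top with a median of 2.03 and cholinergic motor neurons at the bottom with -0.42.

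Microglial genes held the largest changes of the comparison. Of 25 genes of disease-associated microglia, 22 rose and 3 were not called, with a median change of 2.03 (2.19 in batch 1, 2.02 in batch 2). The count was 22 without MO5. *Cst7* (chr2:150570415-150578944), which encodes cystatin F, an inhibitor of lysosomal cysteine proteases, was at 4.93, 5.56, 6.17, 4.20 and 4.75 in MO1 to MO5 and 0.91, 0.59, 0.73, -0.41 and -0.12 in WO1 to WO5. It was below 0 in WO4 and WO5, a product of the batch adjustment, and below 1 in all WO mice, whereas the lowest MO mouse was above 4. The change of 4.78 (SE 0.37, FDR = 2.16e-05) was 4.81 in batch 1 and 4.74 in batch 2. *Trem2* (chr17:48346401-48354147), the lipid-sensing receptor of this state, was at 6.13, 6.60, 7.02, 5.88 and 6.26 in MO1 to MO5 and 3.74, 3.88, 4.00, 3.42 and 3.20 in WO1 to WO5. MO3, the oldest mutant, was highest, and all 5 mutants stood well clear of the WO mice, with a change of 2.73 (SE 0.22, FDR = 2.16e-05). Its signalling partner *Tyrobp* rose by 2.69.

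Lysozyme M, encoded by *Lyz2* (chr10:117277331-117282321), is an antibacterial enzyme of macrophages whose gene has a close paralog that can share its reads. *Lyz2* was at 8.27, 8.34, 9.26, 6.93 and 7.42 in MO1 to MO5 and 3.81, 3.96, 3.94, 2.77 and 2.53 in WO1 to WO5. The groups did not overlap, MO4 was the lowest mutant, and the change was 4.64 (SE 0.45, FDR = 4.85e-05). *Gpnmb*, a membrane glycoprotein of phagocytes under lysosomal load, was at 5.53, 5.10, 6.53, 3.41 and 4.86 in MO1 to MO5 and 0.99, 1.01, 0.90, 0.34 and 0.23 in WO1 to WO5. Its mutant mice were the most spread of any microglial gene shown (SD 1.13), from MO4 to MO3, and even MO4 was far above the highest WO mouse (change 4.39, SE 0.47, FDR = 8.81e-05). *Clec7a*, the beta-glucan receptor dectin 1, was at 4.47, 5.35, 5.52, 4.27 and 4.24 in MO1 to MO5 and 1.02, 0.98, 1.04, 0.17 and 0.08 in WO1 to WO5. All mutants had levels above 4 and all WO mice levels near or under 1, a change of 4.11 (SE 0.31, FDR = 2.16e-05). *Itgax* (integrin CD11c) rose by 3.05, *Spp1* (osteopontin) by 1.44, *Axl* (a receptor for dying cells) by 1.07 and *Cd9* by 1.501. The 3 members that were not called were *Fabp5*, *Timp2* and *Ank*, with changes of 0.41, 0.22 and -0.07.

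Genes that mark microglia in the healthy cord moved less and not all together. Of 17 such genes, 10 rose and 7 were not called (median change 0.66, and 10 without MO5). *Csf1r*, the receptor for the growth factors that keep microglia alive, was at 6.22, 6.14, 6.23, 5.91 and 5.97 in MO1 to MO5 and 4.90, 4.87, 4.98, 4.73 and 4.61 in WO1 to WO5. The levels were tight within each group, and the change of 1.28 had the small SE of 0.09 (FDR = 1.5e-05). *P2ry12*, the ADP receptor by which resting microglia sense damage, was at 3.72, 4.34, 3.79, 4.19 and 3.97 in MO1 to MO5 and 3.74, 4.13, 4.03, 3.84 and 3.79 in WO1 to WO5. The groups overlapped over most of their range, with a change of 0.10 (FDR = 0.623). *Tmem119*, another marker of resident microglia, was at 3.90, 4.27, 3.90, 3.82 and 4.15 in MO1 to MO5 and 3.62, 3.54, 3.63, 3.49 and 3.30 in WO1 to WO5. Every mutant was above every WO mouse, but the change of 0.49 (FDR = 0.00298) was below the minimum fold. *Fcrls* rose by 2.95, *Olfml3* by 1.39 and *Cx3cr1*, the fractalkine receptor, by 1.14, whereas the identity factor *Sall1* was at 3.58 in WO and 3.57 in MO. Among 12 genes of the microglial lineage and its growth factors 11 rose, with a median change of 1.46. They included the transcription factors *Irf8* (1.87), *Spi1* (1.68) and *Runx1* (0.79), the pan-leukocyte gene *Ptprc* (1.68) and the growth factor *Csf1* (0.68). The second ligand of CSF1R, *Il34*, which neurons make, was at 3.29 in WO and 3.38 in MO and was not called.

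Complement marks synapses and debris for removal. Of 20 complement genes 12 rose (11 without MO5, where *C1ra* was no longer called), with a median change of 0.82. *C1qa* (chr4:136895917-136898803), a chain of the C1q recognition molecule, was at 8.06, 8.37, 8.73, 7.72 and 7.96 in MO1 to MO5 and 5.62, 5.52, 5.68, 4.95 and 4.95 in WO1 to WO5. No mutant came within 2 units of the highest WO mouse, and the change was 2.82 (SE 0.21, FDR = 2.16e-05). The other chains, *C1qb* and *C1qc*, rose by 2.59 and 2.60. *C3*, the central component, was at 6.54, 6.40, 6.56, 5.73 and 6.13 in MO1 to MO5 and 4.62, 4.28, 4.56, 4.40 and 3.90 in WO1 to WO5. Again the groups were apart, with a change of 1.92 (SE 0.18, FDR = 3.97e-05). *C4b* rose by 2.00, the receptor genes *C3ar1* and *C5ar1* by 2.20 and 1.13, and the inhibitor of the classical pathway *Serping1* by 1.92. *Cd55*, which encodes a membrane protein that blocks the C3 convertase, was at 2.66 in WO and 2.21 in MO (change -0.45, FDR = 0.000434), and *Cfp*, *C2* and *Hc* were not called.

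All 15 Fc receptor and phagocyte oxidase genes rose, with and without MO5, and their median change was 1.46. *Fcgr2b*, the inhibitory receptor for immunoglobulin G, was at 4.86, 4.64, 4.83, 3.62 and 4.22 in MO1 to MO5 and 1.62, 1.63, 1.83, 1.26 and 0.94 in WO1 to WO5. The lowest mutant, MO4, was 1.79 above the highest WO mouse, and the change was 2.98 (SE 0.25, FDR = 2.48e-05). *Cybb*, the catalytic chain of the superoxide-producing NADPH oxidase, was at 2.85, 2.58, 3.21, 1.99 and 2.38 in MO1 to MO5 and 0.30, 0.32, 0.31, -0.17 and -0.18 in WO1 to WO5. WO mice were at the floor of the scale, with values below 0 left by the batch adjustment in WO4 and WO5, and the change was 2.49 (SE 0.21, FDR = 2.48e-05). Its partners *Cyba*, *Ncf1* and *Ncf4* rose by 2.33, 1.33 and 1.37.

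Of 16 Toll-like receptor genes and their adaptors 6 rose (median change 0.46). By FDR alone 14 of the 16 were at or below 0.05, against 27.9% of all genes. *Tlr2*, a sensor of lipoproteins, was at 3.24, 3.48, 3.29, 2.88 and 3.01 in MO1 to MO5 and 1.36, 1.55, 1.43, 1.16 and 1.18 in WO1 to WO5. The 5 mutants were between 2.88 and 3.48 and no WO mouse reached 1.6, so that the groups were apart (change 1.85, SE 0.12, FDR = 1.46e-05). The co-receptor *Cd14* rose by 1.84 and the RNA sensors *Tlr7* and *Tlr13* by 1.54 and 1.45. *Tlr4*, the endotoxin receptor, was at 0.53 in WO and 1.02 in MO and *Tlr5* at 0.66 in WO and 0.37 in MO. Neither was called, at low levels where the change understates the log2 ratio of FPKM. Of 17 inflammasome and lytic cell death genes 9 rose (median change 0.64), led by the adaptor *Pycard* (1.33), *Naip2* (0.96) and the proteases *Casp1* (0.88), *Casp4* (0.85) and *Casp8* (0.80). The pore-forming *Gsdmd* rose by 0.71. *Il1b* rose by 0.64, from a mean of 0.12 to 0.77, and *Il18* was at 4.95 in WO and 4.80 in MO.

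Chemokines are secreted proteins that draw leukocytes. Of 19 chemokine and chemokine receptor genes measured out of 20 listed, 11 rose (median change 1.14). *Ccl3*, a macrophage inflammatory protein, was at 2.81, 4.09, 4.22, 3.38 and 3.29 in MO1 to MO5 and 0.76, 0.67, 0.59, 0.05 and 0.20 in WO1 to WO5. WO mice stayed under 0.8 and mutants ran from 2.81 to 4.22, without the MO4 minimum seen in other microglial genes, and the change was 3.10 (SE 0.26, FDR = 2.54e-05). *Ccl2*, which attracts monocytes, was at 1.28, 2.05, 1.66, 1.98 and 1.53 in MO1 to MO5 and 0.24, 0.37, 0.56, -0.10 and 0.10 in WO1 to WO5. Its groups were also apart, although its level in mutants stayed near 2 or lower (change 1.46, SE 0.16, FDR = 0.000105). *Ccl4* rose by 2.53, *Ccl6* by 2.48, *Cxcl10* by 1.63 and *Ccl5* by 1.10. The receptor *Ccr2* of blood monocytes was at 0.05 in WO and 0.10 in MO, and neuronal *Cx3cl1* at 6.19 in WO and 5.90 in MO. Of 20 cytokine and receptor genes 15 rose (median change 0.87), and 12 of these encode receptors, such as *Tnfrsf1a* (1.35), *Il2rg* (1.18), *Tgfbr1* (1.10) and *Tnfrsf1b* (1.09). Of the ligands, *Tgfb1* rose by 1.08 and *Il1a* by 0.94. *Tnf* was at 0.04 in WO and 0.34 in MO and *Il6* at 0.11 in WO and 0.11 in MO. Both changes were short of the minimum fold, at low levels where a change understates the log2 ratio of FPKM. By FDR alone 18 of the 20 cytokine and receptor genes were at or below 0.05, against 27.9% of all genes.

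Of 22 interferon-stimulated genes 14 rose, all 22 had a change above 0, and the median change was 0.76 (0.67 in batch 1 and 0.91 in batch 2). *Bst2*, which tethers budding virus particles to the cell, was at 4.41, 4.62, 4.83, 4.59 and 4.56 in MO1 to MO5 and 2.76, 3.06, 2.79, 2.23 and 2.34 in WO1 to WO5. Mutants were within 0.42 of each other, and every WO mouse was lower by more than 1 unit (change 1.96, SE 0.15, FDR = 2.16e-05). *Ifi27l2a* rose by 1.93, *Ifitm3* by 1.33, the transcription factor *Irf7* by 1.06, *Ifit3* by 0.97 and the ubiquitin-like modifier *Isg15* by 0.92. *Stat2*, which carries the interferon signal, was not called (change 0.12). Of 15 genes of MHC class I and the immunoproteasome 11 rose (median change 0.84). *H2-K1*, a class I heavy chain, was at 6.28, 6.34, 6.35, 5.98 and 5.89 in MO1 to MO5 and 4.90, 4.70, 4.84, 4.28 and 4.67 in WO1 to WO5. The groups were about 1 unit apart at their nearest mice, and the change was 1.49 (SE 0.13, FDR = 2.89e-05). *B2m*, the light chain of class I, rose by 1.48, the immunoproteasome subunits *Psmb8* and *Psmb9* by 1.53 and 0.84, and the class I transactivator *Nlrc5* by 0.62. Of 12 class II and costimulation genes 7 rose (median change 0.85). *Cd74*, the class II invariant chain, was at 3.24, 3.35, 4.21, 3.61 and 3.04 in MO1 to MO5 and 1.65, 1.67, 1.57, 0.29 and 2.27 in WO1 to WO5. WO4 and WO5 were the lowest and the highest WO mouse, and WO5 was the nearest to the mutants (change 2.00, SE 0.34, FDR = 0.00143).

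The promoters of the interferon-stimulated genes are shown because 14 of the 22 rose and a motif is known for such genes, the interferon-stimulated response element. RefSeq promoters (GRCm38.p6, 250 bases before to 50 after the start) were found for 14 of the 22 genes, and 8 of them held GAAA followed by any 2 bases and GAAA on either strand. Among all 32851 promoters 3.44% held it, and among the 13509 genes of the table with a promoter 3.67%. It was in 6 of 9 promoters of genes that rose and in 2 of 5 of those not called (*Stat2* and *Rsad2*), which is a match of letters and not a site of binding. The stretches around the matches are printed 5′ to 3′ on the strand of the gene, with all matching bases in capitals.
Bst2 (chr8:71537567-71537622, minus strand): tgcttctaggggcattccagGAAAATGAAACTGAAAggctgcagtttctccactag
Ifitm3 (chr7:141010696-141010762, minus strand): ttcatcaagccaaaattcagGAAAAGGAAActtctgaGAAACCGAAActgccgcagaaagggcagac
Isg15 (chr4:156200855-156200916, minus strand): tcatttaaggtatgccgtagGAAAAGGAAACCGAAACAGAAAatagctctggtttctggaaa
Ifit3 (chr19:34583353-34583436, plus strand): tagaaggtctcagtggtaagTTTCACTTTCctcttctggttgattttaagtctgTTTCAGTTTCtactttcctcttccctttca
Ifit1 (chr19:34640765-34640833, plus strand): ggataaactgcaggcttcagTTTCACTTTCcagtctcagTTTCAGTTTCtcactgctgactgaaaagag
Oas1a (chr5:120907510-120907565, minus strand): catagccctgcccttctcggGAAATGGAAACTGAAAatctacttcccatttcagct
*Bst2* rose by 1.96, *Ifitm3* by 1.33, *Isg15* by 0.92, *Ifit3* by 0.97, *Ifit1* by 0.88 and *Oas1a* by 0.72.

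Like the microglial lineage and Fc receptor lists (medians of 1.46 and 1.46), reactive astrocyte genes had a large median. Of 30 such genes 23 rose and 7 were not called, all 30 had a change above 0, and the median change was 1.495 (1.43 in batch 1, 1.47 in batch 2, and 23 without MO5). *Timp1* (chrX:20870166-20874735), a secreted inhibitor of matrix metalloproteinases, was at 4.12, 4.71, 4.80, 3.97 and 4.22 in MO1 to MO5 and 1.06, 1.28, 0.66, 0.43 and 0.02 in WO1 to WO5. WO mice were at 1.28 or lower and the mutants at 3.97 or higher, with a change of 3.67 (SE 0.24, FDR = 1.46e-05). *Serpina3n*, a secreted inhibitor of serine proteases, was at 8.97, 8.86, 8.88, 7.90 and 8.39 in MO1 to MO5 and 5.67, 5.32, 5.70, 4.88 and 4.81 in WO1 to WO5. It was already abundant in WO mice, and no mutant was less than 2 units above them (change 3.32, SE 0.24, FDR = 2.16e-05). *Gfap* (chr11:102887336-102900912), an intermediate filament of astrocytes that was already abundant in WO mice, was at 10.94, 11.41, 11.25, 10.90 and 11.02 in MO1 to MO5 and 9.50, 9.46, 9.56, 9.67 and 9.30 in WO1 to WO5. Mutants were within 0.51 of each other and above every WO mouse by more than 1 unit, and the change was 1.60 (SE 0.10, FDR = 1.46e-05). A second intermediate filament gene, *Vim*, was at 8.10, 8.31, 8.40, 7.79 and 7.92 in MO1 to MO5 and 5.68, 5.75, 5.68, 5.43 and 5.02 in WO1 to WO5. Its groups were still farther apart, with a change of 2.59 (SE 0.16, FDR = 1.46e-05).

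Further genes of the list were *Cd109* (2.35), the iron-siderophore carrier *Lcn2* (2.31), the hyaluronan receptor *Cd44* (1.64) and the oncostatin M receptor *Osmr* (1.63), all of which rose. *Stat3*, a transcription factor of the reactive response, was at 4.61 in WO and 5.09 in MO (change 0.48, FDR = 3.93e-05) and was not called. Of 18 genes of the everyday work of astrocytes 3 rose, 1 fell and 14 were not called, with a median change of 0.09. *Slc1a2*, the main glutamate transporter, was at 8.12, 8.01, 7.89, 7.91 and 7.95 in MO1 to MO5 and 7.74, 7.84, 7.97, 7.80 and 7.75 in WO1 to WO5. MO1 and MO2 lay above all WO mice and the other mutants among them, with a change of 0.16 (FDR = 0.0633). The water channel *Aqp4* rose by 0.83, *Aldh1l1* by 0.69 and the transcription factor *Sox9* by 0.69. *Slc7a10*, which carries D-serine and other small amino acids, was at 4.47, 5.01, 5.17, 5.41 and 5.11 in MO1 to MO5 and 5.85, 5.77, 5.65, 5.73 and 5.93 in WO1 to WO5. All 5 mutants were below all WO mice, MO1 by the most, and the gene fell by 0.75 (SE 0.14, FDR = 0.00304). *Glul* (glutamine synthetase) was at 9.51 in WO and 9.55 in MO and the GABA transporter *Slc6a11* at 7.18 in WO and 6.67 in MO (change -0.51).

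Motor neuron genes had the lowest median of all lists. Of 16 genes of cholinergic motor neurons 3 fell, 2 rose and 11 were not called, and the median change was -0.42 (-0.47 in batch 1, -0.33 in batch 2, with the same calls without MO5). *Chodl* (chr16:78930948-78951733), chondrolectin, which marks fast motor neurons, was at 2.18, 2.68, 2.45, 3.49 and 2.67 in MO1 to MO5 and 4.48, 4.37, 4.36, 4.38 and 4.59 in WO1 to WO5. WO mice differed by no more than 0.23, MO4 kept the highest mutant level, and all mutants were below all WO mice. *Chodl* fell by 1.74 (SE 0.20, FDR = 0.000129), the largest decrease among named genes without overlap. *Chat* (chr14:32408203-32465989), the enzyme that makes acetylcholine, was at 3.39, 3.25, 3.14, 3.40 and 3.20 in MO1 to MO5 and 4.04, 3.85, 3.92, 3.96 and 3.98 in WO1 to WO5. The groups were narrow and apart by 0.45, and *Chat* fell by 0.67 (SE 0.06, FDR = 3.13e-05), with -0.67 in batch 1 and -0.67 in batch 2. *Mmp9*, a protease of fast motor neurons, fell by 0.70. *Slc18a3*, the vesicular acetylcholine transporter, was at 4.52, 4.43, 4.14, 4.31 and 4.42 in MO1 to MO5 and 5.10, 4.80, 4.75, 4.80 and 4.92 in WO1 to WO5. Every mutant was below every WO mouse, but the change of -0.51 (FDR = 0.00123) was short of the minimum fold. The same was true of *Mnx1* (-0.50), *Slc5a7* (-0.49) and *Ache* (-0.47). In the other direction, *Calca*, which encodes the peptide CGRP, was at 6.83, 7.60, 6.22, 6.61 and 6.95 in MO1 to MO5 and 5.70, 5.57, 5.61, 5.22 and 5.21 in WO1 to WO5. All mutants were above all WO mice, MO2 the most (change 1.38, SE 0.22, FDR = 0.00102). *Uts2*, the peptide urotensin 2 of cholinergic motor neurons, rose by 1.61, and the GDNF receptors *Ret* and *Gfra1* were at 4.42 in WO and 4.47 in MO and 4.45 in WO and 4.86 in MO.

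Of 12 genes of neurofilaments and the axonal cytoskeleton 3 fell and 9 were not called, and all 12 changes were below 0 (median -0.26). The genes that fell were the 3 subunits of the heteropolymer: *Nefl*, *Nefm* and *Nefh*. *Nefl* (chr14:68083863-68089095) was at 9.44, 9.49, 9.37, 9.91 and 9.54 in MO1 to MO5 and 10.42, 10.09, 10.26, 10.32 and 10.38 in WO1 to WO5. MO4 was the nearest mutant to the WO mice and still 0.18 below the lowest of them, and *Nefl* fell by 0.75 (SE 0.10, FDR = 0.000352). *Nefm* and *Nefh* fell by 0.70 and 0.74. *Ina* was at 6.66 in WO and 6.15 in MO (change -0.51), *Prph* at 5.81 in WO and 5.72 in MO and *Stmn2*, which maintains axons, at 8.16 in WO and 8.13 in MO. For axonal transport limma called 0 of 17 genes, although 16 had an unadjusted p below 0.05, 15 an FDR of at most 0.05 with less than the minimum fold, and 16 a change below 0 (median -0.25). *Kif5a*, a kinesin of neurons that is itself an ALS gene, was at 8.02, 7.86, 7.89, 8.07 and 7.98 in MO1 to MO5 and 8.37, 8.27, 8.45, 8.49 and 8.43 in WO1 to WO5. Mutants were at 8.07 or lower and WO mice at 8.27 or higher, a change of -0.44 (FDR = 0.000211).

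Of 18 genes that neurons switch on when an axon is cut 4 rose (6 without MO5) and 14 were not called, with a median change of 0.41. *Sprr1a* (chr3:92483952-92485895), a small proline-rich protein of regrowing axons, was at 4.95, 4.88, 4.48, 3.88 and 4.00 in MO1 to MO5 and 0.64, 0.82, 0.68, -0.14 and -0.09 in WO1 to WO5. WO mice were under 0.9, and the 5 mutants lay between 3.88 and 4.95, with a change of 4.06 (SE 0.26, FDR = 1.46e-05). *Atf3*, a stress transcription factor, was at 3.76, 3.94, 3.74, 2.89 and 3.30 in MO1 to MO5 and 0.74, 0.79, 0.90, 0.40 and 0.37 in WO1 to WO5. Here too the groups were apart, MO4 being the lowest mutant (change 2.89, SE 0.19, FDR = 1.5e-05). *Nupr1* rose by 2.71 and *Tnfrsf12a*, the receptor of TWEAK, by 0.86. *Gap43* (0.41), *Jun* (0.40), *Ddit3* (0.52), *Ecel1* (0.57) and *Gadd45a* (0.58) had changes above 0 and were not called, although without MO5 *Ecel1* and *Gadd45a* were.

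Genes of transmission between neurons had smaller changes, most of them below 0. Of 17 genes of synaptic vesicles 2 fell (3 without MO5) and 14 changes were below 0 (median -0.32). *Syt2*, the calcium sensor of fast release, was at 5.59, 5.36, 5.47, 5.41 and 5.76 in MO1 to MO5 and 5.93, 6.27, 6.51, 6.28 and 6.38 in WO1 to WO5. MO5 was nearest to the WO mice and WO1 nearest to the mutants, without overlap, and *Syt2* fell by 0.76 (SE 0.11, FDR = 0.000545). *Sv2c* fell by 0.74, with overlap, and *Snap25* was at 10.63 in WO and 10.22 in MO (change -0.41). Of 10 genes of transmitter synthesis and transport 1 fell (median -0.20). That gene, *Slc6a5*, the glycine transporter of inhibitory endings, was at 4.84, 4.90, 5.00, 4.81 and 5.43 in MO1 to MO5 and 5.36, 5.83, 6.02, 5.84 and 5.81 in WO1 to WO5. MO5 was above WO1, so the groups overlapped, and *Slc6a5* fell by 0.78 (SE 0.14, FDR = 0.00224). *Gad1* and *Gad2*, which make GABA, were not called.

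Of 17 glutamate receptor genes 1 fell (median -0.26). *Grin3b*, an NMDA receptor subunit found in motor neurons, was at 1.48, 1.18, 1.46, 1.43 and 1.53 in MO1 to MO5 and 2.44, 2.39, 2.04, 2.27 and 2.45 in WO1 to WO5. MO2 stood apart below the other mutants, all of which were below all WO mice, and *Grin3b* fell by 0.90 (SE 0.09, FDR = 5.57e-05). *Glra1*, a glycine receptor subunit, was the 1 gene of 16 GABA and glycine receptors that was called (change -0.71, median of the list -0.11), and it kept its call in 2 of the 10 fits with 9 mice. Among 20 voltage-gated channels 3 fell (median -0.24). Among them, *Scn4b*, a sodium channel subunit, fell by 0.66 and *Hcn2*, a pacemaker channel, by 0.61.

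Among the peptides of the dorsal horn *Calca* alone rose of 16 genes (median change 0.28), and *Sst* and *Penk* were at 7.28 in WO and 7.24 in MO and 7.10 in WO and 7.07 in MO. Of 21 neurotrophic factor and receptor genes 4 rose (median 0.07). *Igf1*, a growth factor that microglia of the disease-associated state make, was at 2.38, 2.65, 2.98, 1.88 and 2.60 in MO1 to MO5 and 0.98, 1.05, 1.197, 0.80 and 0.77 in WO1 to WO5. The lowest mutant was MO4, and it was still above the highest WO mouse (change 1.54, SE 0.18, FDR = 0.000131). *Osmr*, *Cntf* and *Hgf* rose by 1.63, 1.12 and 0.68, while *Bdnf* and *Gdnf* were at 1.63 in WO and 1.84 in MO and 0.04 in WO and 0.10 in MO.

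Of 17 myelin genes 3 fell (2 without MO5) and 14 were not called, with a median change of -0.26 (-0.32 in batch 1, -0.07 in batch 2). *Mbp* was at 12.16, 12.16, 12.24, 14.11 and 14.14 in MO1 to MO5 and 12.61, 12.49, 12.42, 5.36 and 14.22 in WO1 to WO5. WO4 was lower than every other mouse by more than 6 units, and the change of 1.55 (FDR = 0.479) was -0.32 in batch 1 and 4.34 in batch 2. The connexin gene *Gjc3* (change -0.60) and *Ugt8a*, which makes galactocerebroside (change -0.78, with overlap), were called, but in 5 and 1 of the 10 fits with 9 mice. *Mog*, *Mag* and *Cnp* were at 7.31 in WO and 7.005 in MO, 8.50 in WO and 8.18 in MO and 8.88 in WO and 8.70 in MO. For 14 genes of oligodendrocyte precursors and their lineage limma called 0, with 10 at an unadjusted p below 0.05 (7 after adjustment) and a median change of -0.04.

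Of 23 genes of sterol and fatty acid synthesis 2 fell and 21 changes were below 0 (median -0.41). *Idi1* fell by 0.65, with overlap, and *Hmgcs1* was at 7.02 in WO and 6.35 in MO without being called. In contrast 12 of 18 genes of apolipoproteins and cholesterol export rose (median 1.203, and 12 without MO5). *Apoe* (chr7:19696109-19699188), the lipid carrier of glia, was at 12.58, 12.57, 12.82, 11.59 and 12.13 in MO1 to MO5 and 10.57, 10.38, 10.44, 10.33 and 10.21 in WO1 to WO5. It was the most abundant of the genes that rose in this list, MO4 was the lowest mutant, and the change was 1.95 (SE 0.20, FDR = 7.05e-05), with 2.19 in batch 1 and 1.59 in batch 2. *Lpl*, lipoprotein lipase, was at 3.76, 4.40, 4.79, 3.91 and 3.90 in MO1 to MO5 and 1.87, 1.83, 1.79, 1.60 and 1.32 in WO1 to WO5. The groups were apart by 1.89 at their nearest mice (change 2.47, SE 0.19, FDR = 2.16e-05). The neighbours of *Apoe* on the chromosome, *Apoc1*, *Apoc2* and *Apoc4*, rose by 2.21, 2.68 and 2.81. *Ch25h*, which makes 25-hydroxycholesterol, rose by 2.21, the exporter *Abca1* by 1.32 and the lipid droplet coat *Plin2* by 1.09. *Abcg1*, *Nr1h2* and *Nr1h3* were not called.

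Of 34 lysosomal genes 21 rose (median change 0.98, and 21 without MO5). *Cd68*, a lysosomal membrane protein of phagocytes, was at 5.72, 6.04, 6.72, 5.11 and 5.73 in MO1 to MO5 and 2.88, 2.88, 2.91, 2.24 and 2.32 in WO1 to WO5. MO3 was highest and MO4 lowest among mutants, and all were more than 2 units above the WO mice (change 3.22, SE 0.26, FDR = 2.34e-05). *Ctsd*, the aspartyl protease cathepsin D, was at 10.09, 10.50, 10.76, 9.87 and 10.07 in MO1 to MO5 and 8.36, 8.10, 8.33, 7.82 and 7.76 in WO1 to WO5. The 5 mutants were each above 9.8 and the WO mice at 8.36 or lower (change 2.18, SE 0.18, FDR = 2.41e-05). *Ctss*, *Ctsz* and *Ctsh* rose by 2.14, 2.03 and 2.01, progranulin (*Grn*) by 2.00 and the glucuronidase *Gusb* by 1.46. The general membrane proteins *Lamp1* and *Lamp2* (0.30 and 0.46) and *Psap* (0.31) were not called, and *Tfeb*, a transcription factor of lysosomal genes, was at 3.45 in WO and 3.45 in MO. Of 21 autophagy genes limma called 0, with 4 at an unadjusted p below 0.05 (3 after adjustment) and a median change of 0.0022. *Sqstm1*, the cargo receptor p62, was at 8.05 in WO and 8.30 in MO and *Map1lc3b* at 7.86 in WO and 7.85 in MO. The 31 genes of the constitutive proteasome had 0 calls with limma, 3 at an unadjusted p below 0.05 (2 after adjustment) and a median change of 0.07.

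The palindrome TCACGTGA, letters known from the promoters of lysosomal genes, was looked for in the same way. It was in 4 of the 27 lysosomal genes with a promoter, against 1.78% of the genes of the table that have one: 2 of 16 that rose and 2 of 11 that were not called (*Gla* and *Atp6v0d1*). The matches of the genes that rose are printed with their capitals.
Ctsd (chr7:142387899-142387946, minus strand): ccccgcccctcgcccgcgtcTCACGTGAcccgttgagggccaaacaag
Ctsa (chr2:164833740-164833804, plus strand): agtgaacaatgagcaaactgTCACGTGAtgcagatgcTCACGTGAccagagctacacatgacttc
*Ctsd* rose by 2.18 and *Ctsa*, cathepsin A, by 0.94.

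Stress genes were divided. Of 18 heat shock genes 2 rose (median -0.13). *Hspb1*, a small heat shock protein that is also in the reactive astrocyte list, was at 8.44, 8.07, 8.05, 7.33 and 7.84 in MO1 to MO5 and 6.10, 5.72, 5.66, 4.92 and 4.97 in WO1 to WO5. Mutants were above 7.3 and WO mice at or below 6.10 (change 2.47, SE 0.26, FDR = 7.65e-05). *Hspb6* rose by 0.87, whereas *Hspa8*, *Hsp90aa1* and *Hspa1a* were at 10.52 in WO and 10.52 in MO, 9.21 in WO and 9.08 in MO and 1.75 in WO and 1.49 in MO. Of 22 genes of the unfolded protein and integrated stress responses *Atf5* alone rose (0.63, with overlap; median of the list 0.08). *Hspa5*, the chaperone BiP of the endoplasmic reticulum, was at 6.70, 7.25, 6.94, 7.21 and 7.21 in MO1 to MO5 and 7.38, 7.41, 7.17, 6.96 and 6.85 in WO1 to WO5. The groups overlapped, and the change of -0.09 (FDR = 0.69) was -0.36 in batch 1 and 0.31 in batch 2. *Atf4* and *Ddit3* had changes of 0.30 and 0.52.

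Of 14 NRF2 targets and metallothioneins 7 rose (median 0.56). *Mt1*, which binds zinc and copper, was at 11.57, 11.65, 11.29, 10.85 and 11.26 in MO1 to MO5 and 9.98, 10.16, 10.03, 9.50 and 9.57 in WO1 to WO5. The nearest mice of the groups were 0.69 apart, with a change of 1.48 (SE 0.17, FDR = 0.000144). *Hmox1*, the enzyme that breaks down heme, was at 3.51, 3.82, 4.22, 3.46 and 3.81 in MO1 to MO5 and 2.51, 2.46, 2.35, 2.13 and 2.24 in WO1 to WO5. All mutants were at 3.46 or higher and all WO mice at 2.51 or lower (change 1.43, SE 0.14, FDR = 4.66e-05). *Mt2* rose by 1.44 and *Prdx6* by 1.37, whereas the NRF2 targets *Gclc*, *Gclm* and *Txnrd1* had changes of -0.06, -0.07 and 0.11. Of 12 iron genes 2 rose (3 without MO5; median 0.17): the phagosomal iron pump *Slc11a1* (2.07) and ferritin light chain *Ftl1* (1.24).

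Of 16 p53 targets and senescence genes 2 rose (median 0.29). *Gdf15*, a secreted stress signal, was at 1.04, 1.04, 1.23, 0.89 and 1.01 in MO1 to MO5 and 0.13, 0.14, 0.15, -0.04 and -0.16 in WO1 to WO5. It was near 0 in WO mice and near 1 in mutants (change 1.00, SE 0.08, FDR = 2.16e-05). *Cdkn2a* rose by 0.63 and *Cdkn1a* was at 4.85 in WO and 5.31 in MO. Of 16 immediate early genes *Egr2* and *Junb* rose (0.82 and 0.75), and of 12 glucocorticoid-responsive genes *Sult1a1* rose (1.43, with overlap, and not without MO5).

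Of 37 genes of oxidative phosphorylation limma called 0, with 5 at an unadjusted p below 0.05 (3 after adjustment) and a median change of -0.09. Of 24 genes of glycolysis and the hypoxia response *Hk2*, a hexokinase, alone rose (0.89; median of the list -0.04). Of 26 genes of mitosis and DNA replication *Ccnd1* alone was called (0.60, and not without MO5), but 25 changes were above 0 (median 0.30), and *Top2a* was at 0.24 in WO and 0.80 in MO (FDR = 0.00284).

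The endogenous profilin genes were examined because the human transgene has no entry in the table. Mouse *Pfn1* (chr11:70651850-70654644) was at 6.74, 6.95, 7.14, 7.18 and 7.07 in MO1 to MO5 and 6.82, 6.62, 6.50, 6.57 and 6.60 in WO1 to WO5. MO1 was below WO1 and the other mutants were above all WO mice, with a change of 0.40 (SE 0.09, FDR = 0.00708) that was short of the minimum fold. Part of the human reads may align to this gene, and that part was not measured. *Pfn2*, the neuronal profilin, was at 8.31 in WO and 8.20 in MO. Of 30 profilin and actin regulator genes measured of 33 listed, 6 rose (median 0.27). *Capg*, which caps actin filaments in macrophages, was at 4.53, 4.83, 5.16, 4.33 and 4.45 in MO1 to MO5 and 2.56, 2.52, 2.47, 1.94 and 1.85 in WO1 to WO5. The groups were apart by 1.76 (change 2.39, SE 0.19, FDR = 2.16e-05). *Arpc1b* and *Was*, which branch filaments in blood cells and microglia, rose by 1.61 and 0.97, and *Ezr*, *Msn* and *Tmsb4x* by 0.80, 0.74 and 0.78. The other 24 genes of the list, among them *Cfl1* (0.30) and *Enah* (-0.07), were not called.

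Genes with variants linked to ALS were measured for 28 of 29 symbols. Limma called 0 of them, with 15 at an unadjusted p below 0.05 (12 after adjustment) and a median change of -0.08. *Sod1*, the first of them to be known, was at 8.91, 9.10, 9.05, 9.07 and 8.81 in MO1 to MO5 and 9.06, 8.75, 8.92, 8.81 and 8.84 in WO1 to WO5. The groups overlapped (change 0.12, FDR = 0.279). *Tardbp* was at 4.99 in WO and 4.92 in MO, *Tuba4a* at 8.01 in WO and 7.60 in MO and *Unc13a* at 4.28 in WO and 3.92 in MO.

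Of 21 S100, annexin and galectin genes 13 rose (median 0.70). *S100a4* was at 4.90, 6.00, 5.52, 5.17 and 5.31 in MO1 to MO5 and 2.51, 2.05, 2.31, 1.79 and 1.59 in WO1 to WO5. Mutants were at 4.90 or higher and WO mice at 2.51 or lower (change 3.33, SE 0.22, FDR = 1.46e-05). *Lgals3*, galectin 3, a lectin that gathers at damaged lysosomes, was at 5.01, 5.67, 5.93, 5.13 and 5.08 in MO1 to MO5 and 2.02, 2.50, 2.74, 1.89 and 1.36 in WO1 to WO5. Mutants were close together except for MO2 and MO3, which were higher, and all were far above the WO mice (change 3.26, SE 0.27, FDR = 2.32e-05). *S100a6* and *Lgals3bp* rose by 2.47 and 2.36. *Cd52*, a small surface glycoprotein of leukocytes outside the lists, was at 5.36, 6.45, 6.78, 5.90 and 5.94 in MO1 to MO5 and 2.93, 3.26, 3.12, 2.02 and 2.29 in WO1 to WO5. MO1 was the lowest mutant, 2.11 above the highest WO mouse (change 3.36, SE 0.30, FDR = 3.5e-05). Of 19 metalloproteinases and inhibitors 9 rose and 2 fell (median 0.49): the urokinase pair *Plau* and *Plaur* (2.05 and 1.40) and *Mmp12* (1.67) were among the first, and *Mmp9* and *Mmp15* fell by 0.70 and 0.61.

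Of 15 basement membrane genes 1 rose (0 without MO5, where *Fn1* was no longer called by limma) and 1 fell (median -0.07). *Fn1* was called in 5 of the 10 fits with 9 mice. *Nid1*, which links laminin to collagen IV, was at 1.56, 1.85, 1.95, 2.63 and 2.41 in MO1 to MO5 and 2.74, 2.72, 2.72, 3.41 and 3.20 in WO1 to WO5. The batch 2 mice were the highest of both groups, all mutants were below all WO mice, and *Nid1* fell by 0.88 (SE 0.21, FDR = 0.0113), with -0.94 in batch 1 and -0.78 in batch 2. Of 11 genes of the perineuronal net, the matrix coat of fast-spiking neurons, *Tnc* rose (by 0.66) and *Acan* fell (median -0.31). *Acan*, aggrecan, was at 1.58, 1.69, 1.67, 1.75 and 1.81 in MO1 to MO5 and 2.32, 2.31, 2.34, 2.16 and 2.37 in WO1 to WO5. Its groups were 0.36 apart, and it fell by 0.60 (SE 0.05, FDR = 3.18e-05). Of 9 small leucine-rich proteoglycans *Fmod* and *Prelp* rose by 2.36 and 1.12, while the fibroblast genes *Dcn* and *Lum* were at 3.11 in WO and 3.14 in MO and 0.85 in WO and 0.88 in MO.

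Endothelial and blood-brain barrier genes had a median change of -0.33, and of 20 measured 1 rose and, without MO5, *Cdh5* and *Tie1* fell. *Icam1*, the adhesion molecule for leukocytes, was at 2.19, 2.58, 2.73, 2.08 and 2.35 in MO1 to MO5 and 0.96, 1.19, 0.97, 0.65 and 0.76 in WO1 to WO5. All mutants were above 2 and all WO mice under 1.2 (change 1.48, SE 0.14, FDR = 3.81e-05). *Cldn5*, *Pecam1* and *Kdr* had changes of -0.40, -0.50 and -0.56, and *Vcam1* was at 3.04 in WO and 3.32 in MO. Limma called 0 of 14 genes of ependymal cilia and 0 of 16 clock genes, with 3 and 5 at an unadjusted p below 0.05 and 2 and 1 after adjustment. The median changes were -0.04 and -0.01.

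The remaining genes among the largest decreases had varied roles. The potassium channels *Kcnk9* and *Kcnj14* fell by 0.99 (SE 0.16, FDR = 0.00104) and 0.85 (SE 0.07, FDR = 2.69e-05). *Kcnj14* was between 2.94 and 3.34 in mutants and between 3.92 and 4.14 in WO mice. *Slc9b2*, a sodium-proton exchanger, fell by 0.99 (SE 0.10, FDR = 5e-05), *Apln*, the vascular peptide apelin, by 0.93 (SE 0.12, FDR = 0.000234), and the netrin receptor *Unc5b* by 0.82 (SE 0.14, FDR = 0.00186). *Piga*, which starts the synthesis of membrane anchors, and the transcription factor *Nkx2-9* fell by 0.80 and 0.78. *Slc9b2* was higher in WO mice (2.38) than in either young group (1.52 in MY and 1.61 in WY), so its mutant mean of 1.39 was near the level of the young mice.

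Markers of cells that could come with a dissected cord were read next, with the summed FPKM of each list per mouse. For red blood cells 6 of 7 genes were measured, limma called 0 (2 had an unadjusted p below 0.05 and 0 after adjustment), and the sums were 38.6, 209, 186, 201 and 132 in MO1 to MO5 and 296, 215, 217, 256 and 217 in WO1 to WO5. Every mutant was below every WO mouse, MO1 the furthest, and the most abundant gene was *Hbb-b1*, while 2 of the other globin genes, *Hba-a2* and *Hbb-bs*, were at or near 0. For peripheral nerve, 8 of 8 Schwann cell genes summed to 31.7, 27.8, 23.3, 22 and 26.3 in MO1 to MO5 and 23, 22.8, 22.1, 22.2 and 21.5 in WO1 to WO5. The most abundant was *Cdh19*, which glia of the cord also express, and *Egr2* was the 1 gene called. Sensory neuron genes (8 of 9 measured) summed to 5.59 to 7.46 in MO and 5.29 to 6.48 in WO, with *Tlx3*, also a dorsal horn gene, most abundant and *Scn10a*, *Scn11a* and *Prdm12* near 0; limma called 0, with 3 at an unadjusted p below 0.05 (3 after adjustment). Skeletal muscle genes (9 of 9) summed to 2.58 to 5.10 in MO and 3.04 to 4.21 in WO, with *Mylpf* most abundant, *Myh1*, *Myh2* and *Myh4* at or near 0, and *Tnni2* called (0.86). Meningeal fibroblast genes (9 of 10) summed to 16.7 to 20.7 in MO and 14.97 to 20.5 in WO, with *Dcn* most abundant, and limma called 0 (0 at an unadjusted p below 0.05).

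Markers of blood leukocytes were read in the same way. T lymphocyte genes (7 of 10 measured) summed to 0.985, 1.34, 1.01, 1 and 1.43 in MO1 to MO5 and 0.52, 0.641, 0.352, 0.379 and 0.463 in WO1 to WO5. All mutants were above all WO mice, but each sum was under 1.5, *Cd3e*, *Cd3d* and *Cd4* were near 0, the most abundant gene was *Lck*, and limma called 0 with 4 at an unadjusted p below 0.05 (4 after adjustment). B lymphocyte genes (4 of 8) summed to 0.777 to 1.35 in MO and 0.393 to 0.946 in WO, with *Jchain* most abundant and *Pax5* near 0; limma called 0, with 2 at an unadjusted p below 0.05 (1 after adjustment). Neutrophil genes (9 of 10) summed to 15.7, 15.8, 10.4, 10.7 and 7.11 in MO1 to MO5 and 11.1, 40.1, 5.68, 9.19 and 8.68 in WO1 to WO5. WO2 was the highest mouse through *S100a8* and *S100a9* (4.19 and 3.96 in WO2), which were at 2.35 in WO and 1.43 in MO and 2.20 in WO and 1.31 in MO, and the most abundant gene, *Csf3r*, which microglia also express, rose by 1.496. Macrophages of the brain borders (9 of 9 genes) summed to 9.55, 9.25, 13.2, 5.95 and 10.1 in MO1 to MO5 and 3.83, 4.38, 4.41, 3.36 and 2.62 in WO1 to WO5. *Ms4a7* rose by 1.90, the most abundant gene was *Stab1*, and *Mrc1*, *Cd163* and *Lyve1* were each under 0.6 on average in both groups. The part of red blood cells, border macrophages and lymphocytes in the changes above was not tested.

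The genotype difference was also read in young mice. The difference between the end-stage change (MO minus WO) and the presymptomatic one (MY minus WY), tested with limma on all 16 mice, was called above 0 for 845 genes (4.65%) and below 0 for 175 (0.963%). The second count depended on single young mice, and was 78 without WY1 and 366 without WY2 (730 and 926 for the first). The median young change was -0.02 over the 742 genes that rose at end stage and 0.01 over the 94 that fell, which were chosen by their end-stage change. For *Cst7* the young means were 0.64 in MY and 0.48 in WY, for *Gfap* 9.84 in MY and 10.04 in WY, for *Sprr1a* 0.87 in MY and 0.60 in WY and for *Timp1* 1.18 in MY and 1.08 in WY, beside WO means of 0.34, 9.50, 0.38 and 0.69. For *Chodl* they were 4.26 in MY and 4.40 in WY and for *Chat* 3.69 in MY and 3.51 in WY, beside 4.44 and 3.95 in WO. By list, the difference between the stages was called above 0 for 23 of 25 disease-associated microglial genes, 24 of 30 reactive astrocyte genes, 20 of 34 lysosomal genes and 16 of 22 interferon-stimulated genes. It was called below 0 for 6 of 16 motor neuron genes (above 0 for another 2), 5 of 12 neurofilament and cytoskeletal genes and 4 of 20 voltage-gated channels. All young mice were in batch 1, and with the mice of batch 1 alone the counts were 790 and 162. Without MO5 they were 849 and 190.

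**Figure D3:**
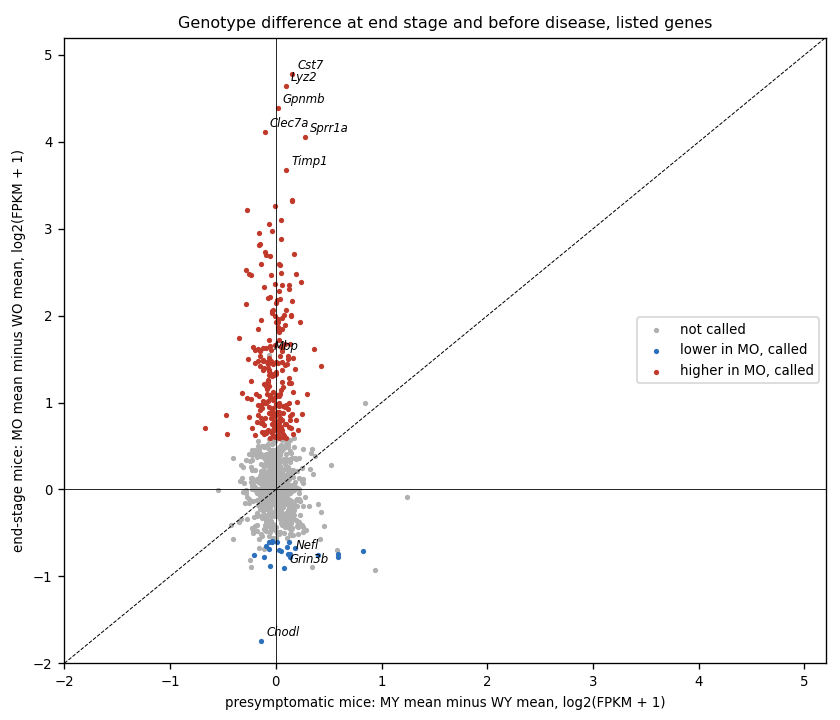
Change at end stage (MO mean minus WO mean, vertical axis) and before disease (MY mean minus WY mean, horizontal axis), both in log2(FPKM + 1), of the 1000 listed genes other than the sex-linked ones, with a dashed line of equality. Red points rose at end stage, blue points fell and grey points were not called; along the horizontal axis 999 of the 1000 genes lie within 1 unit of 0.

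The 5 mutant mice did not contribute equally. Over the genes that rose, the median height above the WO mean was 0.96, 1.06, 1.13, 0.80 and 0.92 in MO1 to MO5. MO3 was the highest mutant in 386 of the 742 genes and MO4 the lowest in 413. Over the genes that fell the median was -0.90, -0.76, -0.71, -0.51 and -0.61, with MO1 the lowest mutant in 52 of 94 and MO4 the highest in 54. The age at end stage was 245 days in MO3, 224 days in MO4 and 198 days in MO1, so the mutants with the largest and the smallest shift of the genes that rose were the 2 oldest, MO3 of batch 1 and MO4 of batch 2. Both batch 2 mutants were below the 3 of batch 1 in this median. The interferon-stimulated list was ordered differently: its mean level was 2.33, 2.57, 2.40, 2.61 and 2.50 in MO1 to MO5 and 1.82, 1.83, 1.80, 1.49 and 1.59 in WO1 to WO5. There MO4 was the highest mutant and MO1 the lowest, and all mutants were above all WO mice. Among WO mice the lowest levels of the genes that rose were those of the 294-day mice WO4 and WO5, which were lowest in 279 and 348 of the 742 genes. In the WO mice batch and age cannot be told apart in this shift. The part of the batch adjustment in it, and in the lower median of both batch 2 mutants, was not tested.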

How the data were processed

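RNA of whole spinal cord was measured by the authors with TRIzol extraction, stranded poly(A) libraries (TruSeq) on an Illumina NextSeq, 1 library per mouse. The authors used Trimmomatic for trimming, TopHat for alignment (mm10) and Cufflinks for FPKM per gene. Genes at 0 in many mice were dropped by them, and the deposited values are log2 of FPKM + 1 after ComBat adjustment for the 2 batches. Versions, gene annotation and ComBat covariates are not given in the sources used. Of the 181670 values of the 10 mice 699, in 529 genes, were below 0 after the adjustment, and they were kept. Not used here were read counts, unadjusted values and reads of the human transgene. Depth per gene is unknown, so precision was taken from the spread between mice.

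Groups, ages and batches came from the sample labels and the paper. The test was limma 3.58.1 under R 4.3.3, two-sided and with moderated variances, on the 5 MO and 5 WO mice, with Benjamini-Hochberg adjustment over 18167 genes. The difference between batches was an interaction term in the same mice, and the difference between stages was fitted on 16 mice with 4 group means. On simulated data with 200 changed genes the procedure was tested and recovered 97.5% of them for MO and WO, 91.5% for the difference between stages and 80.5% for that between batches, with 1, 3 and 8 false calls. Summaries and figures used Python 3.11.15, pandas 2.3.3, NumPy 2.4.6 and matplotlib 3.10.9. Gene positions are from GENCODE M21 on GRCm38, joined by symbol.

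The members, the gene lists and the comparison were chosen with earlier results of these data known. Named by rule were the 10 largest increases and decreases without overlap (no small RNAs or unnamed transcripts) and, per list, up to 6 called genes by size of change and the 4 most abundant others, 410 genes in all. Besides genes of the tissue, sex and other-cell checks, another 64 were named after their values were seen: *Trem2*, *C3*, *Ccl2*, *Gfap*, *Slc1a2* and *Pfn1*, shown with every mouse, and 58 list members given by change or mean. Which 55 genes are shown with every mouse was also decided then. The outcomes of some genes that the rule or the lists cover are not reported here. Sequence motifs were looked for in RefSeq promoters of GRCm38.p6 on both strands. Alternatives were mice of 1 batch, batch as a term, a mean of at least 1, no small RNAs, quantile normalization, all groups in 1 fit, treat against 1.2-fold, a trend of the variance with level, 0.1 in place of 1 before the logarithm, the replicate number as a block, no 294-day mice, and each mouse left out in turn.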

Additional observations from a re-analysis of the deposited data

Results flagged for a closer look

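Of 110 groups of 5 mice checked for 1 mouse far from the other 4, 2 were found, and chance alone flags about 1 in 20 groups. *Grin3b* in MO2 was at 1.18, below the other 4 mutants (1.43 to 1.53). *Mbp* in WO4 was at 5.36, whereas the other WO mice were between 12.42 and 14.22.

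The genotype difference depended on the stage. With limma on all 16 mice, MO minus WO was above MY minus WY for 845 genes and below it for 175 at the FDR and fold used throughout. The 175 became 78 without WY1 and 366 without WY2. The young mice were all of batch 1.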

How the results depend on the processing

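No gene among the 742 and 94 called changed direction under any alternative. Most alternatives kept the counts of 742 and 94 within 1.5 times, but not always with the same genes. Of the 94 genes that fell, 38 were called in batch 2 alone, 45 with treat, 55 without WO4 and WO5 and 77 in batch 1 alone (of the 742, 624, 653, 645 and 665). With 0.1 in place of 1 before the logarithm 1272 genes rose and 257 fell, and with the 4 mice of batch 2 alone 59 fell. The count by FDR alone, 5075, was 2612 in batch 1 alone (6 mice), 1652 in batch 2 alone (4 mice), 3025 without WO4 and WO5, and 839 with treat, which tests against a 1.2-fold change. Fewer mice were fitted in the first 3, and the cause was not tested further. By FDR alone the difference between stages held 3210 genes in place of 1020.

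Leaving out each mouse in turn gave 702 to 795 genes that rose, 67 to 129 that fell and 4008 to 5141 by FDR alone. The difference between batches ranged from 0 to 5 genes (5 without MO4), and the difference between stages from 808 to 1292 (78 to 366 of them below 0). Of 204 named genes that were called, 186 were called in all 10 of these fits. With the replicate number as a block the counts were 742, 98 and 4115, and mice of the same number were not alike (correlations from -0.207 to 0.0913), so a paired reading has no support in the labels. Among the named genes, batch 2 alone had the most lost calls, 33, with 434 unaltered. Depth per gene is unknown, so the level below which a change would be missed could not be given.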
